A study of Mus musculus with 32 samples.

Results

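Immediate early genes are switched on within minutes of a stimulus, by transcription factors that are already present in the cell. Their best known members encode the Fos and Jun proteins, which pair with each other into the transcription factor AP-1, and the Egr and Nr4a factors. In the spinal cord Fos is known as a mark of neurons activated by painful stimulation, and astrocytes carry Fos and Jun family transcripts as well. The genes followed here were 10 of the 55938 in the deposited table, taken by symbol, and each symbol matched 1 Ensembl identifier. They were the Fos family genes Fos, Fosb and Fosl2, the Jun family genes Jun, Junb and Jund, the zinc-finger factors Egr1 and Egr2, the orphan nuclear receptor Nr4a1, and Ier2, which encodes a small nuclear protein.

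Every mouse carried Aldh1l1-CreER, an inducible Cre recombinase under an astrocyte promoter that the genotype label spells Aldhl1l-CreER, together with Rpl22-HA, a ribosomal protein allele that gains an HA tag after Cre acts. Libraries were poly-A selected from the lumbar spinal cord. Trap libraries hold RNA pulled down on the tagged ribosomes with an anti-HA antibody and magnetic beads, and Input libraries hold RNA of the homogenised cord with all its cell types. The groups were mice at 3, 5 or 7 weeks after a fracture, which is a model of complex regional pain syndrome, and mice without fracture, of both sexes. Each combination of sex and injury state had 3 Trap libraries and 1 Input library, so that there were 24 Trap and 8 Input libraries, 6 and 2 per injury state. The labels give neither the age of the mice nor the timing of Cre induction, and do not say which libraries share animals, so the p-values cover only library-to-library spread, which may be technical.

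Library totals ran from 17124034 to 23189228 estimated counts, and levels are given as TMM-scaled CPM, which are counts relative to the library total, with large counting error for genes near 1 CPM. Aldh1l1, the driver gene, was higher in Trap than in Input by 3.73 ± 0.0726 on the log2 scale (± standard error), and Rpl22 by 0.77 ± 0.0551. All 10 astrocyte markers were higher in Trap, summing to 35577 to 49695 CPM in Trap libraries and 5369 to 6133 CPM in Input libraries. All 10 neuron markers were lower in Trap, but none was at 0 there, and their sum was 298 to 941 CPM in Trap and 6895 to 8034 CPM in Input, the highest Trap value being that of female 3 weeks replicate 3. The summed Trap mean was 7.14% of the Input mean for neuron, 21% for microglia, 22.9% for oligodendrocyte, 12.4% for oligodendrocyte precursor, 13.7% for endothelial and 25.7% for Schwann cell markers, against 108% for mural and meningeal and 535% for blood cell markers. Female 3 weeks replicate 3 and male 7 weeks replicate 2 stood apart from the other Trap libraries in an earlier look at these data. Values without the first stand beside the results for Junb and Fosl2 at 3 weeks. Values without both stand beside Junb and the counts of genes called at 3 weeks, with the rest in the closing section.

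Promoters of 8 of the 10 genes, all but Egr1 and Ier2, were examined in RefSeq windows of GRCm38.p6. The windows run from 250 bases before to 50 bases after the start of transcription, and 4 are printed here in the direction of transcription. Those of Fos and Junb are shown because the levels of this pair moved together most closely across Trap libraries, and those of Fosb and Jun because these genes stood at opposite ends of the Trap over Input order. Capitals mark TGACG, the core of the cAMP response element through which CREB acts, on either strand. The windows are chr12:85473640-85473939 on the plus strand for Fos, chr7:19309996-19310295 on the minus strand for Fosb, chr4:95052173-95052472 on the minus strand for Jun and chr8:84978699-84978998 on the minus strand for Junb.
Fos: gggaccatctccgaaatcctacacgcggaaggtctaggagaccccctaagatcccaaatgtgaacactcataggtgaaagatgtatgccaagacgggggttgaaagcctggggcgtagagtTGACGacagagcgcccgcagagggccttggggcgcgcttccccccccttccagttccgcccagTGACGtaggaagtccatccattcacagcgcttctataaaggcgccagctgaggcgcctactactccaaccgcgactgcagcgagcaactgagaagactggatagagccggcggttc
Fosb: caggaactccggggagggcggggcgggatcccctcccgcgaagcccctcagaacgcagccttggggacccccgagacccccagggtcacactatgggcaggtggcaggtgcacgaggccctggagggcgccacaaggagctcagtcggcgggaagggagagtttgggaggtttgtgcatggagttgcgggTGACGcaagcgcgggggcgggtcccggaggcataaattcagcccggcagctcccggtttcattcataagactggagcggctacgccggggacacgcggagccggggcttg
Jun: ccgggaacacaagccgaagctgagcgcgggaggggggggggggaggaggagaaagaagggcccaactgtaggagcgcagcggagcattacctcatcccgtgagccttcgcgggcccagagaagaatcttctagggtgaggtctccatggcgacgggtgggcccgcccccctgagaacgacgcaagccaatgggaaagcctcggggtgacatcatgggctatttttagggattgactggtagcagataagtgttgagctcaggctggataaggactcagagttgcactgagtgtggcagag
Junb: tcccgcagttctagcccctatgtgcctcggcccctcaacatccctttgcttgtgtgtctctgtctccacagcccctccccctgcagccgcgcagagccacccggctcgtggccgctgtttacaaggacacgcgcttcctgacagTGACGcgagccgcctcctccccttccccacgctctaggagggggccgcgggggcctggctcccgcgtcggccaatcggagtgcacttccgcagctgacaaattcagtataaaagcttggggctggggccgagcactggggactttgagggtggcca

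The Fos window held TGACG with its first base at -129 and -66 from the start and the TATA box TATAAA at -33. The Fosb window held TGACG at -60 and the Egr motif GCGNGGGCG at -50. The Junb window held TGACG at -106 and the letters TATAAA at 1, from the RefSeq start itself. The Jun window held no TGACG, and 58.7%, 68.3%, 60% and 65.3% of the bases of the Fos, Fosb, Jun and Junb windows were G or C. Some genes have several windows, and 7 of the 12 windows of the members held TGACG, those of Fos, Fosb and Junb, that of Nr4a1 with 4 matches on the other strand, and 3 of Egr2. These Egr2 windows overlap and hold the same 2 matches, so 1 stretch of sequence is counted 3 times. Among all 32851 promoter windows from RefSeq, 20.8% held TGACG, 1.79% the full element TGACGTCA, 7.81% the AP-1 motif TGANTCA, 13.6% TATAAA, 5.55% GCGNGGGCG and 1.63% the CArG box through which SRF acts, each on either strand. Egr2 was the 1 member of the 8 examined with a CArG box in these windows. No window of Egr1 or Ier2 was examined, and sequence more than 250 bases before the start was not read for any gene. TGACG lies within TGACGTCA, so matches to the full element are also matches to the core. A match describes the letters only and shows no binding.

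Trap was set against Input to see which of these transcripts astrocyte ribosomes carried relative to the whole cord. Fosb and Egr1 were scarce in the pulled-down RNA, Fosl2, Nr4a1 and Junb were lower there, Fos was at a like level in both, and Jun, Ier2 and Jund were higher. edgeR's quasi-likelihood test at an adjusted p under 0.05 called 8 of the 9 members it could test, 3 higher and 5 lower, but it called 88% of all 16804 genes tested, 43.8% higher and 44.2% lower. A share of 8 in 9 is therefore near the background, and what separates the members is their order and size. How many of all genes had Trap and Input ranges without overlap was not counted, so such gaps below describe single genes. Their median log2 fold was -0.88, against 0.01 over all genes. In bulk libraries fewer cells of a type and less RNA per cell cannot be told apart.

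Among the Fos family, Fos (ENSMUSG00000021250.13, chr12:85473890-85477273 on the plus strand of GRCm38), which encodes the founding partner of Jun in AP-1, had 6.27, 10.7 and 17.2 CPM as its lowest, median and highest level in Trap, and 7.82, 10.8 and 16.0 CPM in Input. The ranges overlapped almost wholly, and the log2 fold of Trap over Input was -0.06 ± 0.152 (adjusted p 0.716), with -0.36 to 0.24 as the span of 2 standard errors. Fosb (ENSMUSG00000003545.3, chr7:19302696-19310051, minus strand) is the Fos relative whose truncated form accumulates with repeated stimulation in neurons. It had 0, 0.228 and 0.591 CPM in Trap, which is 0 to 11 counts a library, and 2.51, 4.40 and 6.20 CPM in Input. All 24 Trap libraries lay below all 8 Input libraries, at a log2 fold of -4.25 ± 0.21 (adjusted p 1.58e-21). The Trap mean was 5.16% of the Input mean, close to the 7.14% of the summed neuron markers. Whether RNA of other cells in the pull-down accounts for the Fosb counts was not tested. Fosl2 (ENSMUSG00000029135.10, chr5:32135801-32157842, plus strand), also known as Fra-2, had 1.89, 3.01 and 6.03 CPM in Trap and 6.63, 8.49 and 14.1 CPM in Input, again without overlap, at -1.42 ± 0.133 (adjusted p 3.77e-12).

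Of the Jun family, Jun (ENSMUSG00000052684.4, chr4:95049034-95052222, minus strand), the main partner of Fos and a target of JNK kinases, had 44.2, 84.9 and 118 CPM in Trap and 43.0, 49.5 and 53.2 CPM in Input. All Trap libraries but 1, female uninjured replicate 1, lay above the Input range, and the log2 fold was 0.80 ± 0.111 (adjusted p 5.86e-08). Jund (ENSMUSG00000071076.6, chr8:70698949-70700616, plus strand), the Jun gene best known for steady expression in resting cells, had 34.9, 70.9 and 103 CPM in Trap and 33.8, 54.0 and 66.5 CPM in Input. Its ranges overlapped, with 16 of 24 Trap libraries above all Input libraries, and its log2 fold was 0.45 ± 0.132 (adjusted p 0.00229). Junb (ENSMUSG00000052837.7, chr8:84974484-84978718, minus strand), which often opposes Jun, went the other way, with 3.42, 5.52 and 10.1 CPM in Trap and 7.76, 9.85 and 14.5 CPM in Input. For Junb 20 of 24 Trap libraries lay below all Input libraries, at -0.88 ± 0.129 (adjusted p 1.23e-07). Within the Jun family 2 genes were thus called higher and 1 lower.

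Egr1 (ENSMUSG00000038418.7, chr18:34859823-34864984, plus strand), a zinc-finger factor induced by neuronal activity, had 1.14, 2.27 and 3.87 CPM in Trap and 15.5, 19.5 and 28.0 CPM in Input. The groups were far apart, at -3.20 ± 0.122 (adjusted p 1.51e-23), and the Trap mean was 10.8% of the Input mean. Egr2 (ENSMUSG00000037868.15, chr10:67535475-67542188, plus strand), known for its part in myelination by Schwann cells, was close to absent in both, at 0, 0.114 and 0.568 CPM in Trap, which is 0 to 10 counts a library, and 0.042, 0.177 and 0.428 CPM in Input. It did not pass the filter on low counts. Nr4a1 (ENSMUSG00000023034.7, chr15:101254269-101274795, plus strand), also known as Nur77, had 1.46, 3.20 and 4.20 CPM in Trap and 4.37, 6.10 and 7.76 CPM in Input. Its groups did not overlap, and the log2 fold was -0.91 ± 0.11 (adjusted p 1.61e-09). Ier2 (ENSMUSG00000053560.5, chr8:84661331-84662852, minus strand) had 2.52, 4.31 and 8.30 CPM in Trap and 2.19, 2.75 and 3.61 CPM in Input, at 0.74 ± 0.116 (adjusted p 3.82e-07).

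**Figure D1:**
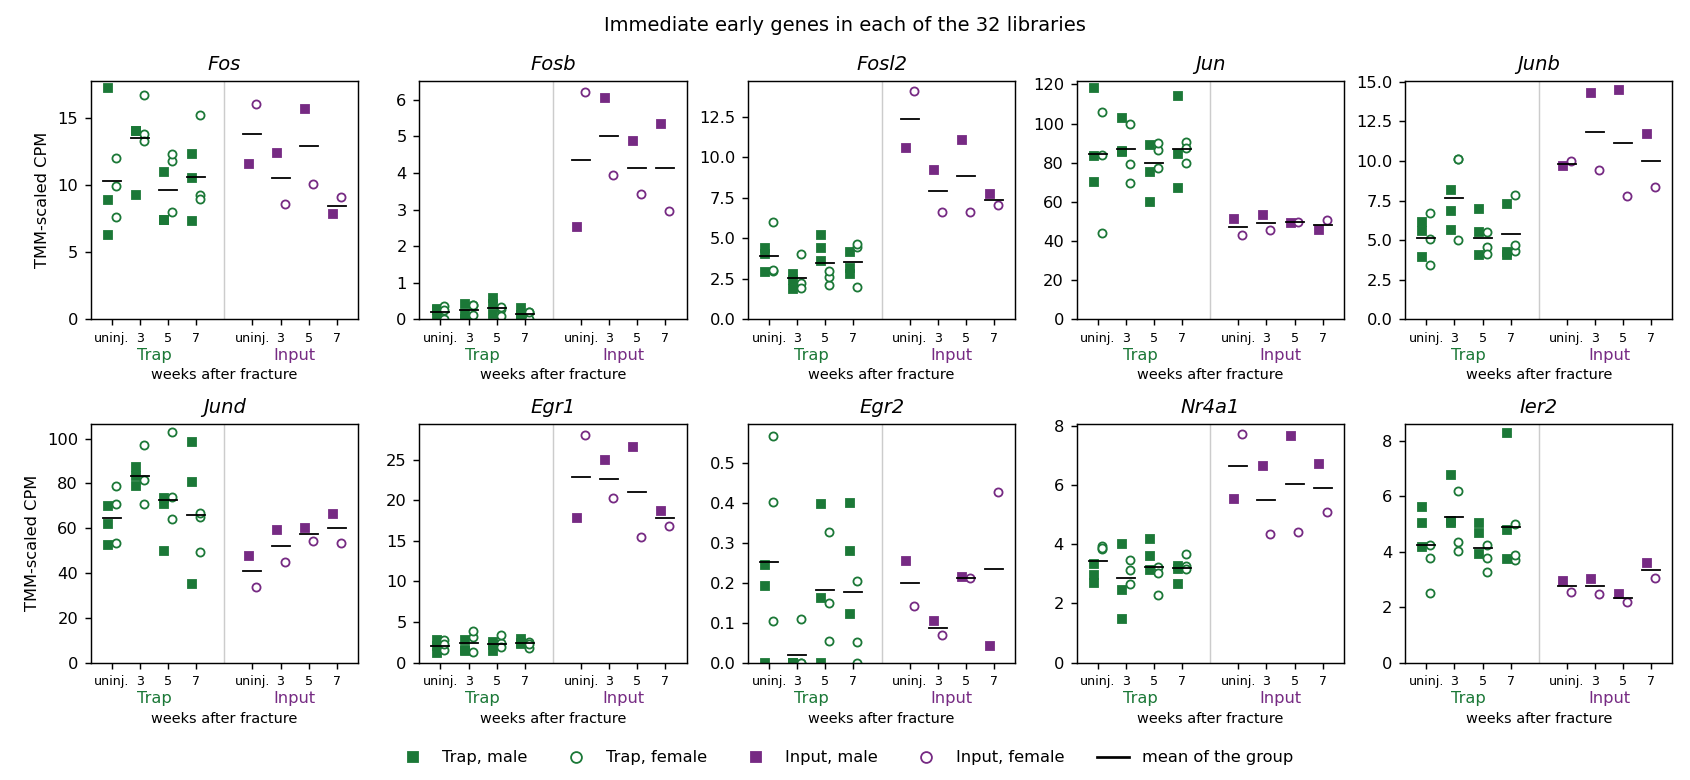
Level of each gene in every library, in TMM-scaled CPM on a linear axis from 0 with its own scale for each gene. Trap libraries are left of Input libraries in each panel, by injury state in weeks after fracture, filled squares are males, open circles females and black bars group means. Fosb, Fosl2, Egr1 and Nr4a1 lie lower in all 24 Trap libraries than in any Input library, while the Fos ranges overlap and 23 of 24 Trap libraries lie above the Input range for Jun. The share of all genes separated in this way was not counted.

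The size of these folds depended on how the libraries were scaled. Scaling by library totals alone, an alternative added after the data were seen, moved the median of all genes to -0.49, and DESeq2's size factors moved it to -0.12. Under library totals Jund stood at -0.05 (adjusted p 0.748), Ier2 at 0.24 (adjusted p 0.0506) and Fos at -0.55 (adjusted p 0.000919), so the direction and call of Jund and the call of Ier2 hold under TMM and DESeq2's size factors but not under library totals, and Fos was called lower under library totals alone. Relative to the median of all genes the folds under library totals were -0.06 for Fos, 0.44 for Jund, 0.73 for Ier2 and 0.80 for Jun. Jun, Junb, Nr4a1, Fosl2, Egr1 and Fosb were called in the same direction under all 3 scalings.

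**Figure D2:**
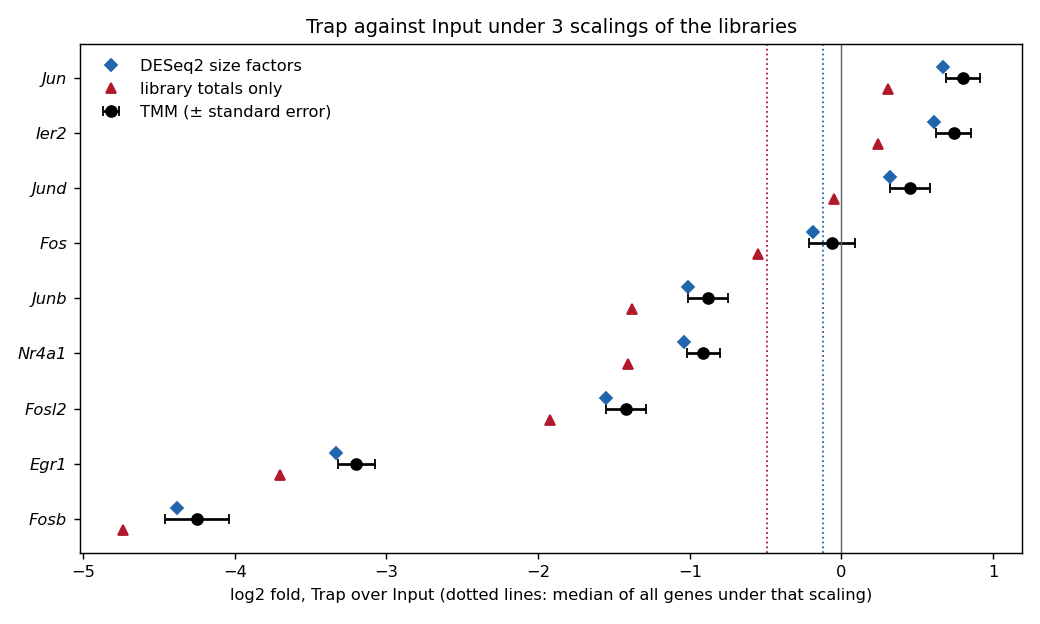
Log2 fold of Trap over Input for the 9 members tested, with TMM scaling in black (bars are the standard error), DESeq2 size factors in blue and library totals in red. Dotted lines mark the median of all genes under the scaling of that colour, at -0.12 and -0.49. The order of the genes is the same under each scaling, from Jun at 0.80 to Fosb at -4.25 with TMM.

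Levels of different genes were set side by side per kilobase of exon. In Trap Jund averaged 42.8 ± 9.92 CPM per kilobase (SD, n = 24), followed by Jun at 26.5 ± 5.18, Fos at 4.68 ± 1.33, Ier2 at 3.05 ± 0.799 and Junb at 2.54 ± 0.807. Nr4a1 at 0.909 ± 0.178, Egr1 at 0.508 ± 0.154, Fosl2 at 0.349 ± 0.116, Egr2 at 0.0461 ± 0.0485 and Fosb at 0.0365 ± 0.025 came after. The library ranges of neighbours in this order overlapped except between Jun and Fos, Junb and Nr4a1, and Fosl2 and Egr2. In Input Jund at 31.4 ± 6.14 CPM per kilobase (SD, n = 8) and Jun at 15.2 ± 1.09 led again and did not overlap, and Fos at 4.85 ± 1.33, Egr1 at 4.70 ± 1.06 and Junb at 4.66 ± 1.11 shared a range. Egr1 thus held the fourth place in whole cord and the seventh on astrocyte ribosomes. The RefSeq start of Jund lies before that of the gene model used for its length, so its level per kilobase depends on the model.

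The study concerns spinal astrocytes in acute and chronic pain, and 3 weeks is the earliest time after fracture it covers. No immediate early gene passed the test in Trap at 3 weeks. The furthest apart were Junb, which was higher in most libraries, and Fosl2, which was lower in most. Junb had 4.98, 7.52 and 10.1 CPM (lowest, median and highest) at 3 weeks and 3.42, 5.34 and 6.70 CPM in uninjured mice. The groups overlapped, though 4 of 6 libraries at 3 weeks lay above all uninjured ones, and the means were 7.65 ± 2.20 and 5.15 ± 1.27 CPM (SD, n = 6 each). The log2 fold of Junb was 0.57 ± 0.212, with an unadjusted p of 0.0125 and an adjusted p of 0.375 over 15380 genes. Without female 3 weeks replicate 3, the library with the most neuron marker RNA, it was 0.72 (adjusted p 0.123). Over all fits that left out 1 library it ran from 0.47 to 0.72 (adjusted p 0.123 to 0.652). Without both libraries that stood apart it was 0.72 (adjusted p 0.0568). Fosl2 had 1.89, 2.34 and 4.01 CPM at 3 weeks and 2.95, 3.54 and 6.03 CPM in uninjured mice, with 5 of 6 libraries at 3 weeks below all uninjured ones. Its means were 2.56 ± 0.785 and 3.92 ± 1.21 CPM (SD, n = 6 each), at -0.60 ± 0.233 (unadjusted p 0.0172, adjusted p 0.422). The fold was -0.79 without female 3 weeks replicate 3 alone (adjusted p 0.195). Only that library, at 4.01 CPM, stood within the uninjured range. Over all fits that left out 1 library the Fosl2 fold ran from -0.79 to -0.39 (adjusted p 0.195 to 0.896). How many of all genes had as many libraries outside the uninjured range was not counted.

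Fos itself had 9.25, 13.9 and 16.7 CPM at 3 weeks and 6.27, 9.39 and 17.2 CPM in uninjured mice. The highest of all 24 Trap values was in an uninjured library, male replicate 2, and the log2 fold was 0.38 ± 0.211 (adjusted p 0.683). Jund had 70.8, 82.3 and 97.4 CPM at 3 weeks and 52.5, 65.9 and 78.8 CPM in uninjured mice, with 5 of 6 libraries above all uninjured ones, at 0.37 ± 0.19 (adjusted p 0.627). Ier2 was at 0.33 ± 0.181 (adjusted p 0.669), Nr4a1 at -0.24 ± 0.169 (adjusted p 0.779), Egr1 at 0.15 ± 0.262 (adjusted p 0.941) and Jun at 0.05 ± 0.177 (adjusted p 0.975). Of these 8 members tested, 6 were positive with a median log2 fold of 0.24, against 0.00 over all genes. edgeR called 0 of the 8, against 0.111% of all genes (17 of 15380), 2 had an unadjusted p under 0.05, against 8.64% of all genes, and DESeq2 called 0 of the 8. The count over all genes was itself unstable: it was 106 of 15611 without both libraries that stood apart and 3 to 57 when any 1 library was left out, and DESeq2 called 135. No member was called in any of these fits.

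Fosb and Egr2 were too low to test in Trap. Fosb had 0 to 0.426 CPM at 3 weeks and 0 to 0.364 CPM in uninjured mice. Egr2 was at 0 in 5 of 6 libraries at 3 weeks and at 0.108 CPM in female replicate 1, 2 counts in all, while the uninjured libraries had 0 to 0.568 CPM and 28 counts in all. The ratio of these counts per library total was 0.0728, with an exact 95% interval of 0.0084 to 0.289 that covers counting error only. At 5 and 7 weeks Egr2 had 21 and 19 counts in 6 libraries each. With no filter on low counts edgeR gave Egr2 an adjusted p of 0.281 at 3 weeks, so the difference did not pass a test over all genes.

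At 5 and 7 weeks most members lay closer to the uninjured cord than at 3 weeks. Jun and Egr1 did not, with log2 folds of 0.05, -0.08 and 0.05 for Jun and 0.15, 0.12 and 0.18 for Egr1 at 3, 5 and 7 weeks. The Fos medians in Trap were 9.39 CPM in uninjured mice, 13.9 at 3 weeks, 9.50 at 5 weeks and 9.85 at 7 weeks, and those of Junb 5.34, 7.52, 5.04 and 4.51 CPM in the same order. Among these Fos and Junb medians only those at 3 weeks stood off from the rest. The log2 folds against uninjured mice ran from -0.21 for Fosl2 to 0.16 for Jund at 5 weeks and from -0.14 for Fosl2 to 0.22 for Ier2 at 7 weeks, with medians over the 8 members of -0.04 and 0.04. edgeR called 0 of 8 members at either time, against 0% of all genes at both, 0 had an unadjusted p under 0.05 and DESeq2 called 0. These comparisons share the uninjured libraries with the one at 3 weeks. Set directly against 3 weeks, Junb was at -0.58 ± 0.211 at 5 weeks (unadjusted p 0.0121, adjusted p 0.726) and at -0.49 ± 0.21 at 7 weeks (unadjusted p 0.028, adjusted p 0.551), and Fos at -0.49 ± 0.213 at 5 weeks (unadjusted p 0.032, adjusted p 0.782). In those comparisons 0 members were called by edgeR or DESeq2, against 0.013% and 0.0195% of all genes by edgeR, with 2 and 1 members at an unadjusted p under 0.05, against 5.89% and 7.93% of all genes. A single test over the 4 injury states called 0 members as well, by edgeR and by DESeq2, against 0.026% of all genes by edgeR, and its smallest unadjusted p was 0.0293 for Junb (adjusted p 0.807).

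Within females at 3 weeks Junb was at 0.73 ± 0.296 (adjusted p 0.479) and Fos at 0.58 ± 0.297 (adjusted p 0.628), and within males Junb was at 0.42 ± 0.303 and Fos at 0.18 ± 0.299 (adjusted p 1 for both). The difference between the sexes in the effect of fracture, males minus females, was -0.32 ± 0.425 for Junb and -0.40 ± 0.422 for Fos, within its error for both. edgeR called 0 members within either sex at any time, against at most 0.039% of all genes (females at 3 weeks), and 0 members for the difference between the sexes, against 0% of all genes; DESeq2 called 0 members in each of these. The unadjusted p was under 0.05 for Junb in females at 3 weeks (0.0211) and for the sex difference of Nr4a1 at 5 weeks (0.73 ± 0.33, unadjusted p 0.0362, adjusted p 0.997). In these comparisons 8.47% and 3.03% of all genes had an unadjusted p under 0.05. Males against females over all states gave a call for 0 of 8 members by edgeR and DESeq2, against 0.195% of all genes by edgeR. Ier2 came nearest there, at 3.75, 5.03 and 8.30 CPM in 12 male libraries and 2.52, 3.96 and 6.20 CPM in 12 female libraries, at 0.36 ± 0.128 (unadjusted p 0.0108, adjusted p 0.364). Between males and females 9.79% of all genes had an unadjusted p under 0.05.

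**Figure D3:**
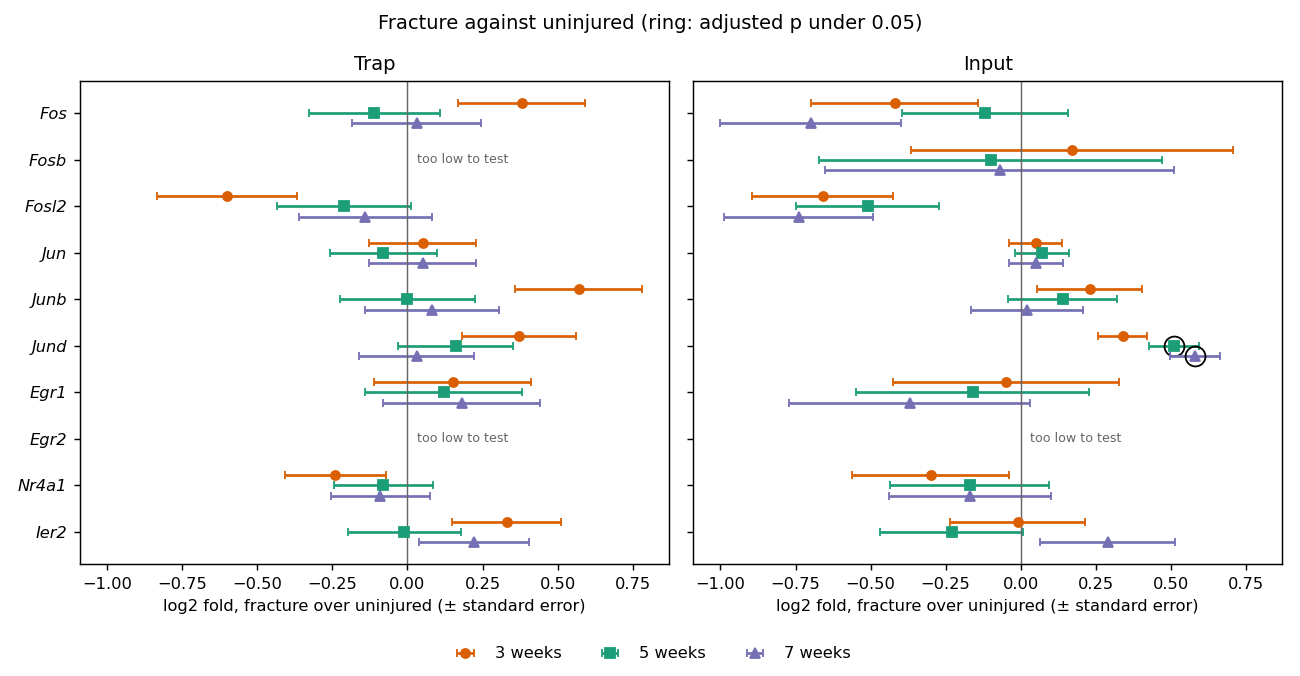
Log2 fold of each time after fracture over uninjured mice, with the standard error as bars, in Trap (left) and Input (right). Black rings mark an adjusted p under 0.05, which was reached by Jund in Input at 5 and 7 weeks and by no gene shown in Trap. At 3 weeks Junb at 0.57 and Fosl2 at -0.60 are the values furthest from 0 in Trap.

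In the whole cord Jund was the 1 member called after fracture, at 5 and 7 weeks. Male and female Input libraries had 47.6 and 33.8 CPM without fracture, 59.0 and 44.7 CPM at 3 weeks, 60.0 and 54.4 CPM at 5 weeks, and 66.5 and 53.5 CPM at 7 weeks. Both libraries at 5 weeks and both at 7 weeks lay above both uninjured ones. Such gaps were not particular to Jund, and Ier2 at 7 weeks lay above as well. Ier2 at 5 weeks, Fos at 7 weeks, Fosl2 at 3 and 7 weeks and Egr2 at 3 weeks lay below. How many of all genes were separated in this way was not counted. With 2 libraries a state and 3 residual degrees of freedom, the log2 fold of Jund was 0.34 ± 0.0816 at 3 weeks (adjusted p 0.0569), 0.51 ± 0.0817 at 5 weeks (adjusted p 0.0163) and 0.58 ± 0.0819 at 7 weeks (adjusted p 0.00253). edgeR called 0, 1 and 1 of 9 members at 3, 5 and 7 weeks, and so did DESeq2, against 1.08%, 0.107% and 0.214% of all 16803 genes by edgeR. At 3 weeks 2 members had an unadjusted p under 0.05, against 13.9% of all genes.

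The Jund calls rest on single libraries. The female uninjured library, at 33.8 CPM, was the lowest of the 8 Input libraries for Jund. At 5 weeks the call was lost without the female uninjured library (0.41, adjusted p 0.309) or the female library at 5 weeks (0.38, adjusted p 0.444), and at 7 weeks without the female uninjured library (0.48, adjusted p 0.097) or the male library at 7 weeks (0.58, adjusted p 0.077). At 3 weeks Jund was called without the male uninjured library (0.45, adjusted p 0.0476), without the female library at 7 weeks (0.34, adjusted p 0.0451) and under library totals (0.37, adjusted p 0.0411). Microglia markers summed to 305 to 331 CPM in Input at 3 weeks, 265 to 284 at 5 weeks and 274 to 284 at 7 weeks, against 246 to 293 CPM without fracture, and neuron markers to 7052 to 7687, 6895 to 7613 and 7343 to 7724 CPM, against 7421 to 8034 CPM without fracture. Their part in the Jund result was not tested.

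The other members did not pass the test in Input. Fosl2 had the lowest folds, with 10.6 and 14.1 CPM in the male and female libraries without fracture, 9.24 and 6.64 at 3 weeks, 11.1 and 6.63 at 5 weeks, and 7.73 and 7.06 at 7 weeks. Its log2 fold was -0.66 ± 0.236 at 3 weeks (adjusted p 0.253), -0.51 ± 0.237 at 5 weeks (adjusted p 0.61) and -0.74 ± 0.249 at 7 weeks (adjusted p 0.69). Without the male uninjured library Fosl2 was called at all 3 times, at -1.10, -0.94 and -1.17, so that 1 library decides these results. Fos was at -0.42, -0.12 and -0.70 at 3, 5 and 7 weeks (adjusted p 0.594, 0.931 and 0.873). Jun stayed within 0.05 to 0.07 at all times, and the folds of Junb, Ier2, Egr1, Nr4a1 and Fosb ran from -0.37 to 0.29.

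Whether fracture acted differently on the pulled-down RNA than on the whole cord was tested as the Trap effect minus the Input effect. edgeR called 0 of 9 members at 3, 5 or 7 weeks, against 0%, 0.00595% and 0% of all 16804 genes, 0 members had an unadjusted p under 0.05 and DESeq2 called 0. Jund was at 0.02 ± 0.359, -0.32 ± 0.359 and -0.53 ± 0.36 at 3, 5 and 7 weeks (adjusted p 1 for each), so the Input call at 7 weeks was not shown to be absent from Trap, where the log2 fold was 0.03. Fos was at 0.76 ± 0.394 at 3 weeks (unadjusted p 0.0623, adjusted p 1). Its log2 fold after fracture was 0.38 in Trap and -0.42 in Input, neither of them called. The Input fold ran from -0.82 to 0.01 over fits that left out 1 library.

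The wider immediate early response was followed in 4 lists: 32 other immediate early genes, 10 partners and relatives of AP-1, 26 upstream genes around SRF, CREB and the MAP kinases, and 18 feedback inhibitors. In Trap against Input these lists split in both directions, as the members did. So did all 16804 genes tested, with 43.8% called higher and 44.2% lower. Of the other immediate early genes 31 were tested, with 12 called higher and 17 lower and a median of -0.52. Higher were the matricellular gene Ccn1, at 15.7 ± 2.61 CPM in Trap (SD, n = 24) and 1.74 ± 0.226 CPM in Input (SD, n = 8), and the stress genes Gadd45g (2.27 ± 0.0839) and Ier5 (2.18 ± 0.113). Lower were the synaptic gene Arc, at 1.78 ± 0.528 CPM in Trap and 20.9 ± 3.11 CPM in Input, and Egr3 (-4.22 ± 0.191), which like Egr1 responds to neuronal activity. Of the 9 AP-1 partners tested 2 were higher, Atf7 (0.48) and Batf3 (1.09), and 7 lower, among them Mafg (-1.12) and Maf (-1.22), with a median of -0.67.

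Among the 26 upstream genes 8 were higher and 15 lower, with a median of -0.45. The kinase gene Map2k1 (0.71), the CREB co-activator Crtc3 (1.20) and the CREB relatives Atf1 (1.17) and Crem (0.94) were higher, and the JNK genes Mapk9 (-2.30) and Mapk10 (-1.15), the ribosomal S6 kinase gene Rps6ka2 (-2.31) and the SRF co-activator Mrtfb (-2.44) lower. The feedback inhibitors had the one positive median of the 4 lists, 0.54, with 11 of 18 higher and 5 lower. List medians are given under TMM only, and the median of all genes moved from 0.01 to -0.49 under library totals. Zfp36l1 (2.67) and Zfp36l2 (2.64), whose proteins destabilise early transcripts, the ERK pathway inhibitor Spry2 (2.29) and the ERK phosphatase Dusp6 (1.88) were higher, and the Egr repressor Nab2 (-1.72), Spry1 (-1.76), Dusp2 (-3.61) and Dusp10 (-1.43) lower.

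After fracture edgeR called 0 of the 78 tested genes of these lists in Trap at each of the 3 times, where 10, 2 and 1 had an unadjusted p under 0.05 and DESeq2 called 2, 0 and 0. Over all 15380 genes 8.64%, 2.76% and 2.85% had an unadjusted p under 0.05 and DESeq2 called 135, 1 and 0. The list medians at 3 weeks were 0.03, 0.11, 0.07 and 0.07 in the order given above. The genes that DESeq2 called at 3 weeks were Gadd45g, at 41.8, 59.7 and 69.8 CPM after fracture and 62.5, 77.8 and 86.1 CPM in uninjured mice (lowest, median and highest; DESeq2 adjusted p 0.0166), and Rhob, a small GTPase gene (DESeq2 adjusted p 0.0239). In edgeR Gadd45g was at -0.43 ± 0.103 (adjusted p 0.0919) and Rhob at -0.39 ± 0.0973 (adjusted p 0.11), both on the side opposite to Junb.

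In Input 1 of 84 list genes was called at 3 weeks by edgeR and 0 at 5 and 7 weeks, with 17, 15 and 10 at an unadjusted p under 0.05. Over all genes edgeR called 1.08%, 0.107% and 0.214%, and 13.9%, 8.49% and 5.87% had an unadjusted p under 0.05, so 1 call in 84 at 3 weeks is near the background. The called gene was Atf3, which pairs with Jun proteins and is known for its induction in injured neurons. It had 3.78 CPM in the male and 1.29 CPM in the female library at 3 weeks, against 0.582 and 0.425 CPM without fracture, which is 110 and 37 counts against 16 and 12. The log2 fold was 2.29 ± 0.373 (adjusted p 0.0043), and the call was lost without the male library at 3 weeks (1.91, adjusted p 0.249) or the male uninjured one (1.65, adjusted p 0.296). DESeq2 gave Atf3 no adjusted p and called Sgk1 in its place (-1.40, adjusted p 0.0366). In Trap Atf3 had 1.03 to 1.95 CPM at 3 weeks and 1.50 to 3.12 CPM in uninjured mice.

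Across the 24 Trap libraries the members did not move as a block. Pearson's r of log2 CPM was highest between Fos and Junb, at 0.62, and lowest between Fosl2 and Jund, at -0.46. Fos correlated with Jund and with Egr1 at 0.44 each, with Jun at 0.29 and with Nr4a1 at -0.27. The RefSeq window of Jund, which ends before the start of the gene model used here, held no TGACG, and that of Nr4a1 held 4. A link between this motif and r was not tested. The r values are descriptions, since libraries share depth, scaling and injury state. The genes outside the members whose levels were most like those of Fos were Gfap (r 0.71, Spearman's rho 0.73, r 0.67 without the 2 farthest libraries), Tpm3 (0.71), Trdn (0.70), Batf3 (0.69) and Ccl27a (0.69). For Jun they were Snx12 (r 0.76, rho 0.69), Prkag2 (0.72), Ier5 (0.71), Tprn (0.69) and Dusp8 (0.69), of which Prkag2 and Dusp8 fell to an r of 0.42 without the 2 farthest libraries. Gfap, the filament gene of reactive astrocytes, had 11875, 13164 and 16816 CPM at 3 weeks and 9564, 11911 and 13013 CPM in uninjured mice.

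**Figure D4:**
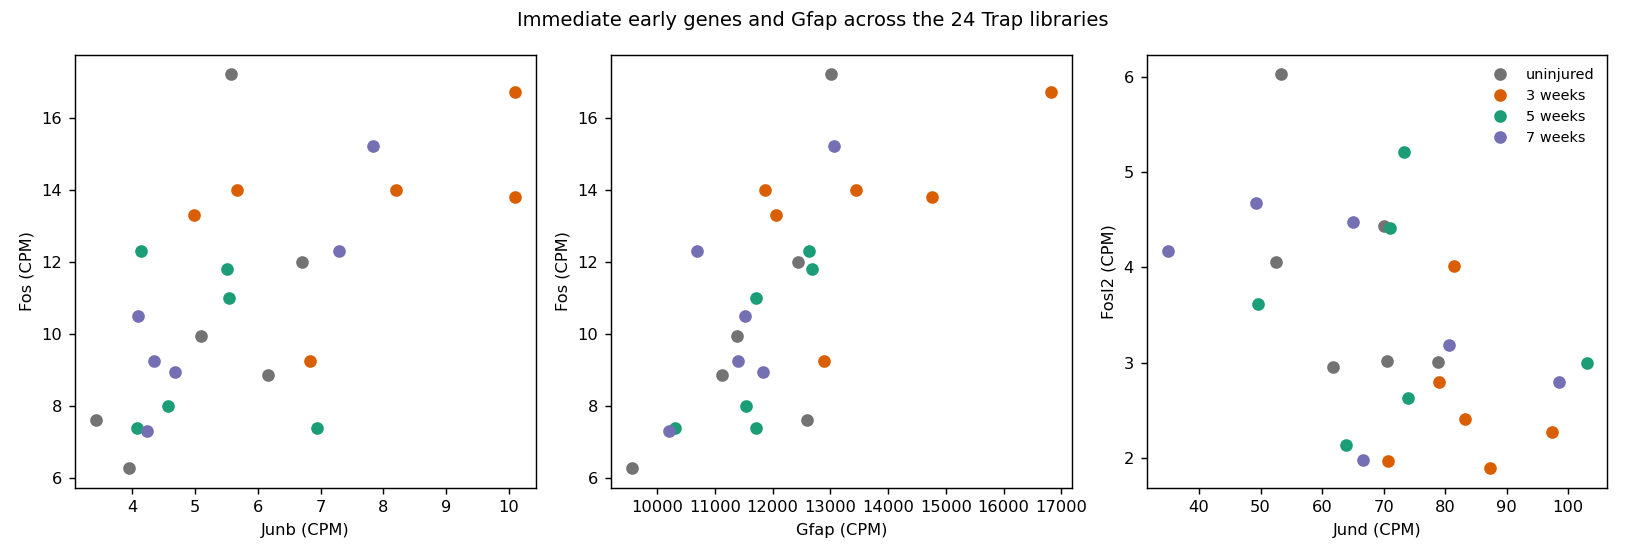
Each point is 1 of the 24 Trap libraries, in TMM-scaled CPM on linear axes that do not start at 0, coloured by injury state. Fos rises with Junb (r 0.62) and with Gfap (r 0.71), and Fosl2 is lower where Jund is higher (r -0.46). Libraries of 3 weeks after fracture lie mostly towards the upper right of the panels of Fos and towards the lower right of the panel of Fosl2.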

How the data were processed

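RNA of 24 Trap and 8 Input libraries was quantified by the authors, who deposited RSEM estimated counts per gene, not normalized, for 55938 Ensembl identifiers. FastQC, Trim Galore, STAR and RSEM with GRCm38 are named in the submitters' processing notes, without versions, and the annotation release is not given in the sources used here. Between 6.21% and 8.53% of a library's values were not whole, since RSEM divides reads that genes share, and all were rounded here. Library totals were 17124034 to 23189228. Symbols, coordinates and exon lengths came from GENCODE M21, which matched 55141 identifiers by the identifier without version, and the other 797 took 0.301% of the counts. Promoter sequences came from RefSeq, GRCm38.p6. In 32 of 32 libraries sex-linked genes matched the labelled sex, and no pair of Trap replicates agreed within counting noise.

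The test was edgeR's quasi-likelihood test (version 4.0.16, R 4.3.3) with filterByExpr (minimum count 10), TMM, robust glmQLFit and 2-sided glmQLFTest, adjusted by Benjamini-Hochberg over all genes tested, and a call is an adjusted p under 0.05. The Trap fit had 1 mean for each sex in each state (16 residual degrees of freedom, biological coefficient of variation 0.138 at the median), and fracture effects were averaged over the sexes. Input libraries were fitted with sex as an additive term (3 residual degrees of freedom), and Trap against Input with sex and state (26 residual degrees of freedom). CPM values are TMM-scaled over all 32 libraries, and log2 CPM for correlations had a prior count of 2. The fits were tested on simulated data. DESeq2 1.42.0, other scalings, no filter, replicate blocks and leaving out each library were alternatives.

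The members, gene lists and markers were chosen with earlier results of these data known. Named were all members in each comparison, the called genes of each list (at most 4 each way by p, or the top 2 as values), and for Fos and Jun the 5 genes of at least 1 CPM with the highest r. Of the called list genes that the rule names, 1 is not reported here. Genes that DESeq2 alone called were added after their values were seen.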

Additional observations from a re-analysis of the deposited data

Results flagged for a closer look

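Of 50 groups of libraries and genes examined, 2 held a library far from the rest of its group, where chance alone sets apart about 1 in 20. Egr2 in Trap at 3 weeks was highest in female replicate 1, at 0.108 CPM, which is 2 counts, while the other 5 libraries were at 0. Ier2 in Trap at 7 weeks was highest in male replicate 2, at 8.30 CPM, against 3.71 to 5.01 CPM in the other 5 libraries. That male library also had 769 CPM of summed neuron markers, and its part in the Ier2 value was not tested.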

How the results depend on the processing

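The number of members called was the same or within 1.5 times in 528 of 536 fits that left out 1 library and in 155 of 156 other fits. The exceptions were all in Input, where the count over left-out libraries was 0 to 2 at 3 weeks, 0 to 2 at 5 weeks and 0 to 3 at 7 weeks, and 1 at 3 weeks under library totals. In Trap against Input it was 8 in each left-out fit, and after fracture in Trap it was 0. With the outlying Trap libraries left out (female, 3 weeks, replicate 3; male, 7 weeks, replicate 2), the 3-week folds in Trap were -0.03 for Jun and -0.02 for Egr1, and the 7-week folds -0.05 for Fos, -0.06 for Jun, -0.08 for Junb and -0.12 for Jund, each turning sign near 0, while Junb at 3 weeks was 0.72 (adjusted p 0.0568). Under library totals Jund in Trap against Input was -0.05, Ier2 in Trap at 5 weeks 0.02 and Ier2 in Input at 3 weeks 0.01. The cause was not tested.

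Leaving out 1 library turned the sign of single members in 63 of 1080 fits. In Trap the ranges were -0.16 to 0.05 for Fos against Input; -0.08 to 0.20 for Jun and -0.02 to 0.33 for Egr1 at 3 weeks; -0.25 to 0.16 for Fos, -0.22 to 0.07 for Jun, -0.02 to 0.30 for Egr1 and -0.10 to 0.07 for Ier2 at 5 weeks; and -0.11 to 0.30 for Fos, -0.25 to 0.07 for Fosl2, -0.09 to 0.20 for Jun, -0.08 to 0.21 for Junb and -0.12 to 0.20 for Jund at 7 weeks. In Input they were widest for Fosb, -0.68 to 1.26 at 3 weeks and -0.93 to 1.02 at 5 and at 7 weeks, and were -0.82 to 0.01 for Fos, -0.06 to 0.18 for Jun, -0.14 to 0.58 for Junb, -0.54 to 0.53 for Egr1, -0.04 to 0.01 for Ier2 and -0.84 to 0.25 for Nr4a1 at 3 weeks. At 5 weeks they were -0.52 to 0.31 for Fos, -0.04 to 0.20 for Jun, -0.23 to 0.49 for Junb, -0.65 to 0.41 for Egr1 and -0.70 to 0.39 for Nr4a1, and at 7 weeks -0.10 to 0.19 for Jun, -0.35 to 0.36 for Junb, -0.86 to 0.20 for Egr1 and -0.71 to 0.38 for Nr4a1. Without the male uninjured library Egr1 in Input at 7 weeks was called (adjusted p 0.045).

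The labels do not say that replicate numbers mark a shared animal or batch. Column names in the deposited counts carry prefixes that follow sex and replicate number, except for female replicate 1, and their meaning is not given. The deviations of same-numbered libraries of a sex correlated at 0.06 on average, over 0.1 in 7 of 36 pairs, against -0.03 and 1 of 72 pairs for different numbers, and 14 of 24 libraries correlated best with their own number, which is a hint of pairing from the data and not from the design. With the number as a replicate block the genes called in Trap at 3 weeks were 44, or 80 with the block within sex, against 17 without, and 0 members were called, with Junb at 0.58 (adjusted p 0.166, or 0.126 within sex). With replicate 1 of Trap paired with Input as a replicate block, Jund was at 0.26 and no longer called (adjusted p 0.242), from 16 of the 32 libraries. Without both outlying libraries the genes called were 106 at 3 weeks, 35 over the 4 states, 24 for 5 against 3 weeks, 51 for 7 against 3 weeks, 44 in females at 3 weeks and 46 for males against females, against 17, 4, 2, 3, 6 and 30 with them, and 0 members in each. Fosb and Egr2 had 0 to 11 counts a Trap library, so their values there carry large counting error.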

Other observations

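In Input the male library had more of most members than the female one after fracture: 10 of 10 at 3 weeks, 9 of 10 at 5 weeks and 7 of 10 at 7 weeks, against 4 of 10 in uninjured mice. How many of all genes were higher in the male library was not counted. Egr2 is among the members counted at 3 and 5 weeks, on 3 and 5 counts in the male and 2 and 6 in the female library. The uninjured female library was the highest of the 8 Input libraries for 5 members, Fos (16.0 CPM), Fosb (6.20 CPM), Fosl2 (14.1 CPM), Egr1 (28.0 CPM) and Nr4a1 (7.76 CPM), and the lowest for Jun (43.0 CPM) and Jund (33.8 CPM). It was also the Input library with the highest sums of astrocyte (6133 CPM), neuron (8034 CPM) and oligodendrocyte markers (18078 CPM). There is 1 Input library for each sex and state, so a difference between these libraries cannot be told apart from one between the sexes, and none was tested.

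In Trap no library was highest for more than 2 members. Their highest values fell in 9 different libraries, and male uninjured replicate 2 was highest for 2 of them, Fos (17.2 CPM) and Jun (118 CPM). Male 3 weeks replicate 1 was lowest for Fosl2 (1.89 CPM) and Nr4a1 (1.46 CPM), and shared the lowest Egr2 value, 0, with other libraries. Female uninjured replicate 3 was lowest for Junb (3.42 CPM) and Ier2 (2.52 CPM). Male uninjured replicate 3 was lowest for Fos (6.27 CPM) and Egr1 (1.14 CPM), so both ends of the Fos range came from uninjured males.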
